A study of Mus musculus with 9 samples.

Results

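The spindle assembly checkpoint genes described here are Mad1l1, Mad2l1, Mad2l1bp, Bub1, Bub1b, Bub3, Ttk, Trip13 and Zw10. They were taken by symbol from the array rows that name exactly 1 gene, and all 9 were found, each with 1 row, among 19938 genes. Their messages were read in 9 mouse oocytes at metaphase II, collected singly, with 1 oocyte per Affymetrix Mouse Gene 1.0 ST array. In 3 oocytes the crude lysate made in NuGEN direct lysis buffer was amplified without purification. In 3 the RNA was purified with the Arcturus PicoPure kit and in 3 with the Qiagen RNeasy Mini kit. All donors were non-mated ICR females (an outbred strain) aged 2 months, primed with 10 IU of PMSG and 46 hours later with 10 IU of hCG. For each condition 1 to 3 cells came from each of 3 mice, and the labels do not tie an oocyte to its mouse. Some oocytes may share a mouse. Each oocyte was prepared, amplified and read once. The spread behind the p-values therefore joins differences between oocytes with noise of preparation, amplification and array, and does not separate mice. Every sample went through the same NuGEN One-Direct amplification, and the labels give no mutation and no treatment of the oocytes, so what the groups are labelled to differ in is how the RNA was prepared.

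The checkpoint delays anaphase until every chromosome is attached to the spindle. At an unattached kinetochore the kinase MPS1 (Ttk) recruits BUB1 and BUB3, these recruit MAD1, and MAD1 converts MAD2 into the form that captures CDC20, the activator of the anaphase-promoting complex. MAD2, BUBR1 (Bub1b), BUB3 and CDC20 then form the mitotic checkpoint complex, which inhibits that ligase, and p31comet (Mad2l1bp) with the ATPase TRIP13 takes it apart. In mouse oocytes these proteins time the first meiotic division and guard against aneuploidy, while the arrest at metaphase II itself is held by EMI2 and MOS. A mature oocyte is largely silent in transcription, so its messages are stored ones.

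The cell cycle genes homology region (CHR) is a short element known from cell cycle genes, which the DREAM and MuvB complexes bind. The upstream sequences of 4 members are shown because they hold or lack its letters. They are RefSeq windows of GRCm38.p6, from 250 bases before to 50 after a transcript start, written 5′ to 3′ on the gene's own strand, with TTTGAA (or TTCAAA on the other strand) and TTCGAA in capitals. Bub1b is at chr2:118597961-118598260 (plus strand), Ttk at chr9:83834439-83834738 (plus strand), Mad2l1 at chr6:66534971-66535270 (plus strand) and Mad2l1bp at chr17:46153502-46153801 (minus strand).
Bub1b: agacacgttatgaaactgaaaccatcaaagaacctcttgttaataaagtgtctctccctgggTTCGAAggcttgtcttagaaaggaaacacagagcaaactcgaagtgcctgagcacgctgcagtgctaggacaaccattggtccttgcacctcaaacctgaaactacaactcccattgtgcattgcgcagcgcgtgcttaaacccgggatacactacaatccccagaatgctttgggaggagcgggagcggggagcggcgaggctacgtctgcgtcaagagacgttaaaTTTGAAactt
Ttk: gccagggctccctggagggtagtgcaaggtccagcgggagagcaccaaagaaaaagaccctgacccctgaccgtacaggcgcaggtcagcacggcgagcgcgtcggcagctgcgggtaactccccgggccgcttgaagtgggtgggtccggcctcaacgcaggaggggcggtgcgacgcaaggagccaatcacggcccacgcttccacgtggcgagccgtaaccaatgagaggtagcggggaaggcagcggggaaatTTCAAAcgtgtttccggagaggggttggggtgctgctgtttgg
Mad2l1: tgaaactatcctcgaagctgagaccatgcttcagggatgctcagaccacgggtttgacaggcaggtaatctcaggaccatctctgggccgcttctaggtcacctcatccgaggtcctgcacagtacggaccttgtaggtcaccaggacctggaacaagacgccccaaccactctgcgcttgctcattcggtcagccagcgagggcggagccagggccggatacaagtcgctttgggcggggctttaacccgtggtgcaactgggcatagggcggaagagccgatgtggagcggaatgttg
Mad2l1bp: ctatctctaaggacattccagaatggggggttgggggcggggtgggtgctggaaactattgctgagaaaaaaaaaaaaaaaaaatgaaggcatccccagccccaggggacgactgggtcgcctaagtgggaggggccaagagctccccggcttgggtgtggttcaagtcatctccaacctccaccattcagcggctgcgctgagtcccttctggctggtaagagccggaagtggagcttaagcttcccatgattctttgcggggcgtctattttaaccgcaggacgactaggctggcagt

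All 9 genes had a window, and Mad1l1 and Bub3 had 2 each. On either strand, TTTGAA or TTCGAA stood in windows of 6 genes (Bub1, Bub1b, Bub3, Ttk, Trip13 and Zw10) and in none of Mad1l1, Mad2l1 and Mad2l1bp. Of all 32851 windows 19.2% held one of them, a share per window, while a gene with 2 windows had 2 chances. The matches were taken anywhere in a window. Those of Bub1b begin 188 bases before and 40 after the transcript start, and that of Ttk 7 after. TTCGAA alone stood in windows of Bub1, Bub1b and Trip13, against 1.56% of all windows. CCAAT, the box bound by NF-Y, stood in windows of Bub1, Bub1b, Bub3 and Ttk, against 37.4% of all. GGGCGG, the GC box, stood in windows of 6 genes (Mad2l1, Mad2l1bp, Bub1, Bub3, Ttk and Trip13), against 35.7% of all. These motifs were chosen after the values below had been seen, and a match of letters is not evidence of binding.

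The values are the authors' normalized log2 expression values. Array medians lay between 7.12 and 7.24. Sensory receptor genes (1233 olfactory, vomeronasal and taste receptors), which an oocyte should hardly transcribe, served as background, taken on each array as their 95th percentile. It ran from 7.19 to 7.47 and is no formal detection call. Of 10 oocyte markers, 9 exceeded background on every array, Zp3, Gdf9 and Bmp15 among them. Of 8 cumulus and granulosa markers with a row, 1 (Foxl2) exceeded it on every array and 4 on no array, Fshr and Has2 among these. The other 3, Inhba, Ptgs2 and Tnfaip6, exceeded it on RNeasy replicate 3 alone, at 8.48, 7.56 and 8.39. The highest of the other 8 arrays had 7.21, 6.94 and 7.03. The summed level of the 8 on the linear scale was 967 to 1175 in crude lysates and 909 to 1651 in purified RNA, and the 1651 was that array, which also had the highest background (7.47). The part of RNeasy replicate 3 in the results was not tested beyond leaving it out, and values without it are given where they bear on a result. Of 8 blood and immune markers with a row, 1 (Cd3e) exceeded it on every array and 6 on no array, Ptprc among these, with summed levels of 800.0 to 861 in crude lysates and 739 to 858 in purified RNA. Each row was set against background only and not against other rows, since probe sets differ in their response.

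Messages of 7 of the 9 checkpoint genes were read above background in every oocyte. Mad1l1, Mad2l1, Bub1, Bub1b, Bub3, Ttk and Zw10 lay above background on all 9 arrays, where 43.1% of all genes did. Mad2l1bp and Trip13 each lay above it on 7 arrays. Members detected per array numbered 8 or 9.

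**Figure D1:**
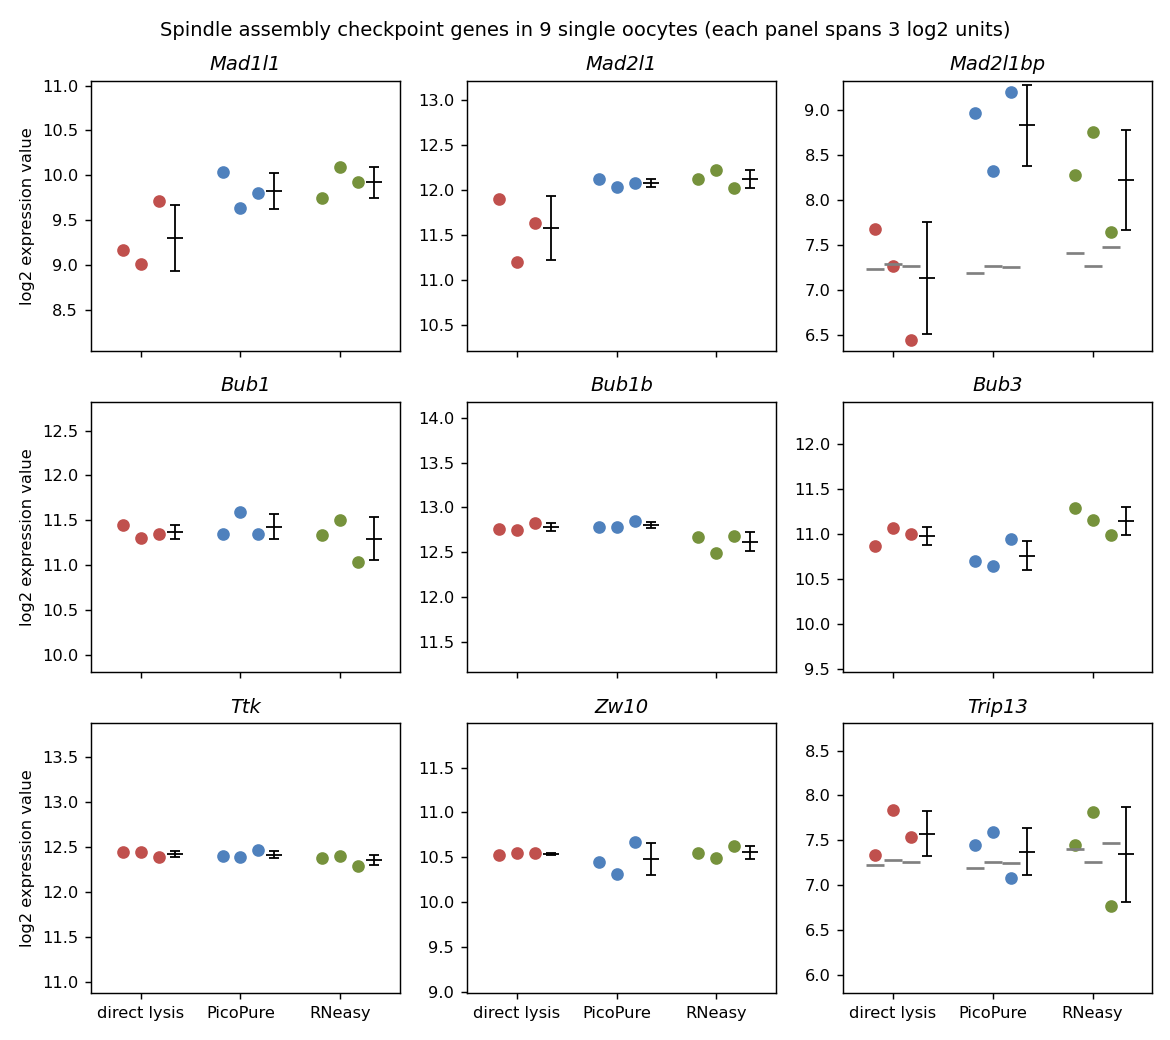
Log2 expression values of each checkpoint gene (vertical axis, each panel spanning 3 log2 units) by preparation (horizontal axis), 1 coloured point per oocyte with the mean and SD of the 3 beside them in black. Grey dashes in the panels of Mad2l1bp and Trip13 are each array's background. Mad1l1, Mad2l1 and Mad2l1bp average lower in crude lysates, while the preparations overlap for Bub1, Ttk and Zw10.

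Crude lysate was first set against purified RNA of both kits (limma, 1 fit over all genes and 9 arrays). Mad1l1, Mad2l1 and Mad2l1bp, which encode MAD1, MAD2 and the MAD2 partner p31comet, had differences of -1.40 to -0.52 log2 units in crude lysate without passing the test, and the differences of the other 6 were 0.21 or less. No member passed at an adjusted p of 0.05, where 1.01% of all genes did (68 higher and 133 lower, or 75 and 83 after a further quantile normalization). At an unadjusted p under 0.05 there were 3 of 9 members (Mad1l1, Mad2l1 and Mad2l1bp), against 14.2% of all genes. The median difference of the members was 0.02, against 0.00 for all genes. Without RNeasy replicate 3 the differences of Mad1l1, Mad2l1 and Mad2l1bp were -0.57, -0.55 and -1.54, and none passed. Buffer, column and possibly the mice differ together between these groups and cannot be told apart here.

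Mad2l1, the protein that is converted to capture CDC20, had 11.90, 11.20 and 11.63 in crude lysates. It had 12.12, 12.03 and 12.08 with PicoPure and 12.12, 12.22 and 12.02 with RNeasy. Every crude lysate lay below every purified oocyte, a pattern (crude lysates all lower) that 3.72% of all genes showed, and no other member had groups that did not overlap. The difference was -0.52 ± 0.14 (SE), with a 95% interval of -0.85 to -0.20, and did not pass (limma, adjusted p = 0.153). Mad2l1 averaged 11.58 in crude lysate (SD 0.35, n = 3), against 12.10 in purified RNA (SD 0.07, n = 6). The fit pools the spread of the 3 preparations, so the SE and interval take no account of this unequal scatter.

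Mad1l1 encodes the kinetochore scaffold for MAD2 and had 9.17, 9.01 and 9.72 in crude lysates. It had 10.03, 9.63 and 9.80 with PicoPure and 9.75, 10.09 and 9.93 with RNeasy. Crude lysates 1 and 2 lay below all purified oocytes, and the third overlapped PicoPure only. The difference was -0.57 ± 0.17 (SE; interval -0.96 to -0.18; limma, adjusted p = 0.194).

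Mad2l1bp encodes p31comet, the MAD2-binding partner that lets TRIP13 reset MAD2, and had 7.68, 7.26 and 6.44 in crude lysates. It had 8.96, 8.32 and 9.20 with PicoPure and 8.28, 8.75 and 7.64 with RNeasy. It lay above background in 1 of 3 crude lysates and in 6 of 6 purified oocytes, and the highest crude lysate overlapped only RNeasy replicate 3. Its difference of -1.40 ± 0.34 (SE; interval -2.19 to -0.60) did not pass (limma, adjusted p = 0.125). With values raised to each array's background the difference was -1.12, since part of the drop lies below that level.

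For Bub1, Ttk and Zw10 the differences between crude lysate and purified RNA were small and did not pass. Bub1b and Bub3 are described with the comparison of the kits below. Bub1, a kinase and docking platform of the kinetochore, had 11.45, 11.30 and 11.35 in crude lysates, 11.35, 11.59 and 11.35 with PicoPure and 11.34, 11.51 and 11.04 with RNeasy. Its difference was 0.01, with an interval of -0.25 to 0.26. The crude lysates lay inside the range of the purified oocytes.

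Ttk, the kinase MPS1 at the head of the pathway, had 12.45, 12.44 and 12.38 in crude lysates, 12.39, 12.39 and 12.46 with PicoPure and 12.38, 12.39 and 12.29 with RNeasy. All 9 oocytes lay within 0.17 log2 units, and the difference was 0.04 (interval -0.08 to 0.16). Its SD over the 9 arrays was 0.05, and 2.13% of the genes above background on all arrays had a smaller one. That ranking takes no account of level, and Ttk has high values. Over all genes, pairs of arrays shared 690 to 1716 exactly identical values. Ttk had the same value on RNeasy replicate 2 and PicoPure replicate 1. The source of such ties was not tested, so a small SD need not mean close agreement between oocytes. The oocyte markers named above, also of high value, had SDs of 0.12 (Zp3), 0.05 (Gdf9) and 0.04 (Bmp15). Zw10, a subunit of the RZZ complex that brings dynein and MAD1 to kinetochores, had 10.53, 10.55 and 10.54 in crude lysates, 10.45, 10.31 and 10.67 with PicoPure and 10.55, 10.49 and 10.63 with RNeasy. Crude lysates of Zw10 differed by no more than 0.02, and its difference from purified RNA was 0.02 (interval -0.17 to 0.21).

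Trip13, the ATPase that remodels MAD2 and the meiotic HORMA domain proteins, had 7.34, 7.84 and 7.54 in crude lysates. It had 7.45, 7.59 and 7.08 with PicoPure and 7.45, 7.81 and 6.77 with RNeasy. PicoPure replicate 3 and RNeasy replicate 3 lay below background, and the groups overlapped. The difference of 0.21 had an interval of -0.33 to 0.75 and became 0.07 with values raised to background, so at this level a change of moderate size could not be seen. Without RNeasy replicate 3 it was also 0.07.

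**Figure D2:**
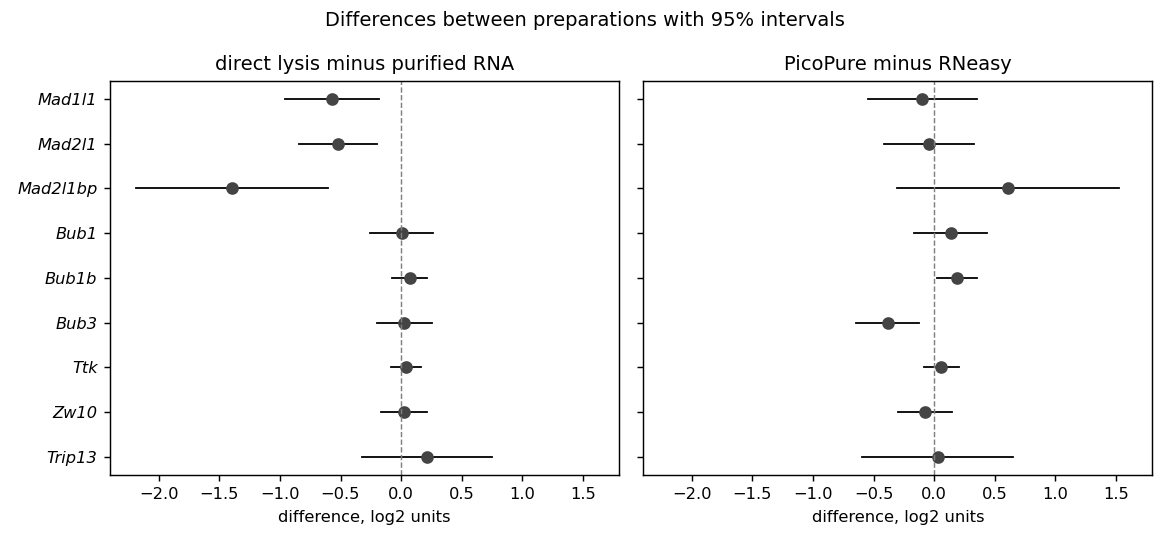
Differences in log2 units (horizontal axis) for direct lysis minus purified RNA (left) and PicoPure minus RNeasy (right), with 95% intervals of the limma fit before any adjustment for multiple genes. On the left the intervals of Mad1l1, Mad2l1 and Mad2l1bp lie below 0, and on the right those of Bub1b and Bub3 leave 0. None of the 18 differences passed after adjustment over all genes.

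PicoPure against RNeasy asks whether both column kits give the same reading. No member passed, where 0.0602% of all genes did, and 2 of 9 had an unadjusted p under 0.05 (Bub1b and Bub3), against 7.98% of all genes. The same 2 had kits that did not overlap, against 13.9% of all genes. The median difference of the members was 0.03, against -0.03 for all genes.

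Bub1b and Bub3, both subunits of the mitotic checkpoint complex, pointed in opposite directions between the kits. Bub1b, which encodes the pseudokinase BUBR1 that blocks CDC20, had 12.79, 12.78 and 12.85 with PicoPure and 12.67, 12.50 and 12.68 with RNeasy. The difference was 0.19 ± 0.07 (SE; interval 0.02 to 0.35; limma, adjusted p = 0.568). In crude lysates Bub1b had 12.76, 12.75 and 12.83, above all RNeasy and within the PicoPure range or just below it.

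Bub3, the WD40 adaptor that carries BUB1 and BUBR1 to the kinetochore, had 10.69, 10.64 and 10.94 with PicoPure and 11.29, 11.16 and 10.98 with RNeasy. The difference was -0.38 ± 0.11 (SE; interval -0.65 to -0.12; limma, adjusted p = 0.442). Its crude lysates, at 10.87, 11.06 and 11.00, lay between or overlapped both kits, and the difference from purified RNA was 0.02. Without RNeasy replicate 3 the differences between the kits were 0.22 for Bub1b and -0.46 for Bub3. Mad1l1 and Mad2l1, low in crude lysate, differed between the kits by -0.10 (interval -0.55 to 0.35) and -0.04 (interval -0.42 to 0.33). Mad2l1bp differed by 0.61, with an interval of -0.31 to 1.52, the widest of the members, and by 0.31 without RNeasy replicate 3.

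Direct lysis was also set against each kit alone. Both comparisons share the 3 crude lysates, so their values are given side by side. Against RNeasy and against PicoPure, Mad1l1 had differences of -0.62 and -0.52, Mad2l1 of -0.55 and -0.50 and Mad2l1bp of -1.09 and -1.70. Bub1b had 0.16 and -0.02, and Bub3 had -0.17 and 0.22. No member passed in either comparison, where 0.436% of all genes did against RNeasy and 0.597% against PicoPure. The smallest adjusted p was 0.219 against RNeasy (Mad2l1) and 0.128 against PicoPure (Mad2l1bp; limma). Groups did not overlap for Mad1l1, Mad2l1 and Bub1b against RNeasy, where 16.9% of all genes had such groups, and for Mad2l1 and Mad2l1bp against PicoPure, where 16.6% did.

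Replicate oocytes, each prepared and read once, scattered unequally from gene to gene. In crude lysate the SD of 3 oocytes was 0.37 for Mad1l1, 0.35 for Mad2l1 and 0.63 for Mad2l1bp. It was 0.08 for Bub1, 0.04 for Bub1b, 0.10 for Bub3, 0.04 for Ttk, 0.25 for Trip13 and 0.01 for Zw10. For Mad2l1 it was 0.04 with PicoPure and 0.10 with RNeasy. The median SD of the 9 members was 0.10 in crude lysate, 0.16 with PicoPure and 0.15 with RNeasy. Over the 8598 genes above background on all arrays these medians were 0.19, 0.13 and 0.15. Of the members, 5 had their smallest SD in crude lysate, 3 with PicoPure and 1 with RNeasy. The largest SD was in crude lysate for 3, with PicoPure for 2 and with RNeasy for 4, and the unequal scatter was not tested.

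**Figure D3:**
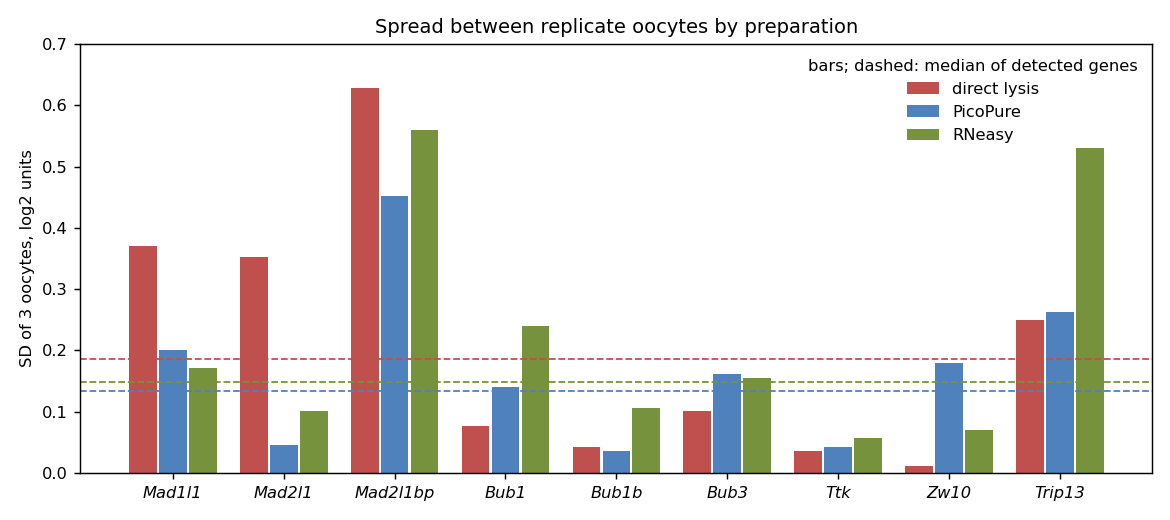
SD of the 3 oocytes of each preparation in log2 units (vertical axis, from 0) for each checkpoint gene (horizontal axis). Dashed lines are the medians of that SD over genes above background on all arrays, in the colour of the preparation. Bars of Ttk and Bub1b lie below the lines in all 3 preparations, and those of Mad1l1, Mad2l1bp and Trip13 lie above them.

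Genes that work with the checkpoint were covered by 8 lists with 78 genes, of which 76 had a row of their own (Ccnb1 and Tpr had none named for them alone). Of these, 66 lay above background on all arrays. Between crude lysate and purified RNA 1 was lower and 0 were higher, where 0.667% of all genes were lower and 0.341% higher, and between the kits none passed.

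The gene that passed was Cdc20, which encodes the protein that MAD2 and BUBR1 hold. A link between its difference and those of the checkpoint genes was not tested. It had 9.30, 8.58 and 9.14 in crude lysates, 10.48, 10.19 and 10.15 with PicoPure and 9.86, 9.87 and 10.26 with RNeasy. Its difference was -1.13 ± 0.18 (SE; limma, adjusted p = 0.0325), and no crude lysate reached a purified oocyte. Followed through the 17 alternative settings after its values were seen, Cdc20 stayed lower in crude lysate (-1.28 to -0.91) and passed in 7 of them, with adjusted p (limma) of 0.0264 to 0.0853. It did not pass with the replicate block (adjusted p = 0.0735, limma) or when any of 8 of the 9 arrays was left out. Some of the settings change only the test and leave the difference as it was. Among the 18 genes of the anaphase-promoting complex with its coactivators and E2 enzymes, Ube2c, the E2 that starts ubiquitin chains, had 0.35 and the subunit Cdc27 -0.19, neither past the threshold. The subunit Anapc10, above background on 6 arrays and named after its values were seen, had -1.06 ± 0.19 (SE) and did not pass (adjusted p = 0.0571, limma). The median of that list was -0.07.

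The outer kinetochore list, the platform on which the checkpoint assembles, had 12 genes, 11 of them above background on all arrays. None passed, 10 differences were negative and the median was -0.14. Of all 19938 genes, 9840 had a negative difference. Nsl1, above background on no array, is among the 10. Knl1, whose phosphorylated repeats dock BUB3 with BUB1, had -0.52 (adjusted p = 0.224, limma) and Spc25, of the NDC80 complex, -0.24. In the list of the kinetochore corona and dynein adaptors, 8 of 8 genes lay above background and none passed. Its median was -0.13. Cenpf, a corona protein, had -0.23 and the kinesin gene Cenpe, which binds BUBR1, -0.55. Partners of ZW10 in its other role, membrane tethering at the endoplasmic reticulum, had a median of -0.23 over 6 genes. Of these, 4 lay above background on all arrays. Use1 had -0.48 and Sec22b -0.21. None passed.

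Centromeric kinases, passengers and shugoshins were all above background (10 of 10) and had a median of -0.04. Birc5, the passenger survivin, had -0.29 (adjusted p = 0.0805, limma), and passed in the comparison with RNeasy alone, at -0.49, a call kept in 6 of 17 alternatives and lost when any 1 array was left out. Whether its differences from the kits are unequal was not tested. Haspin, the kinase that marks histone H3 for the passengers, had 0.38. Of the 12 genes of the phosphatases PP1 and PP2A, which silence the checkpoint kinases, none passed and the median was -0.08. Ppp2r5c, a B56 subunit that BUBR1 recruits, had -0.68 (adjusted p = 0.163) and the scaffold Ppp2r1a -0.39. The substrates that the checkpoint keeps stable and their partners numbered 5, with a median of -0.01. Cdk1 had -0.34 and the cyclin gene Ccnb2 0.18. The HORMA domain genes, relatives of MAD2, had a median of 0.28 over 5 genes, of which 3 lay above background on all arrays. Atg101 and Atg13, both of the autophagy initiation complex, had 0.40 and -0.28, and none passed.

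**Figure D4:**
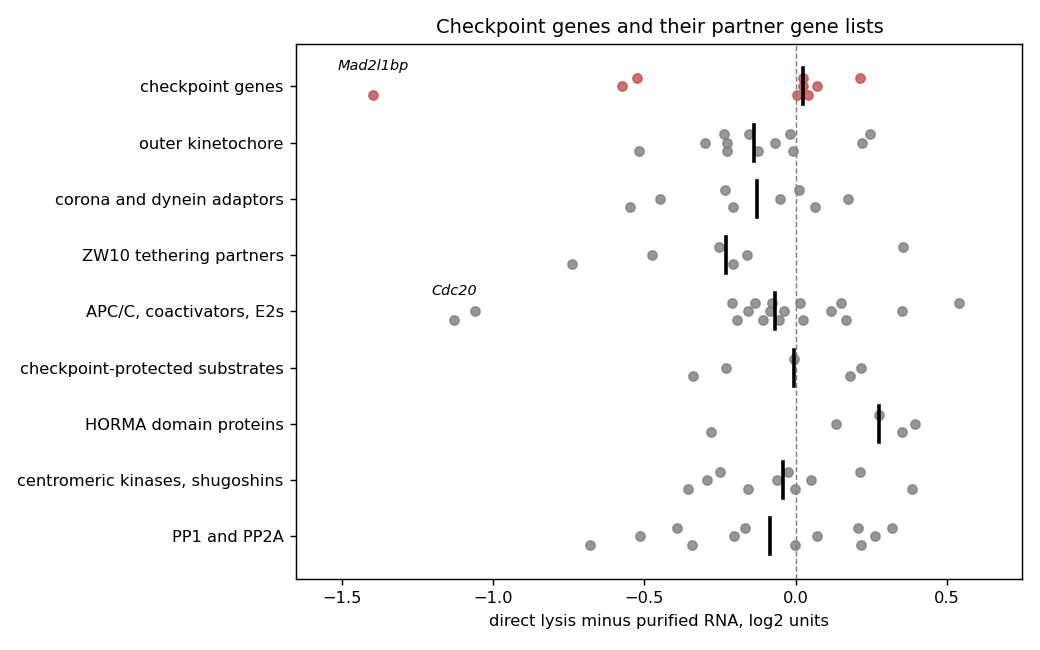
Difference between direct lysis and purified RNA in log2 units (horizontal axis) for each checkpoint gene (red, top row) and each gene of the 8 partner lists (grey), with the median of each list as a black bar. Mad2l1bp and Cdc20 are labelled. Of all points shown, only Cdc20 passed the test over all genes, and the medians of the lists run from -0.23 to 0.28.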

How the data were processed

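Each array held 1 oocyte. The authors deposited 1 normalized log2 value per row and array (35556 rows, 9 arrays, 0 missing). The submitters' processing notes list GCRMA, GCOS and Affymetrix Expression Console, with no version, role or order. The log2 scale was read from the values (2.41 to 13.90), and no build is named in those notes or labels. No scanner files were used, so background correction and normalization could not be repeated, and the number of arrays limits the precision.

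In the platform's probe annotation 21789 rows had 1 symbol, 1621 several and 12146 none, and only the first were used. The row with the highest mean was kept for each gene. Groups came from the sample titles. The test was limma's (3.58.1, under R 4.3.3; lmFit, eBayes, two-sided, Benjamini-Hochberg over 19938 genes, threshold 0.05) in 1 fit of 3 groups with 6 residual degrees of freedom, and the code was tested on simulated data. Contrasts were direct lysis minus the mean of both kits, minus each kit, and PicoPure minus RNeasy. The labels tie no replicate number to a mouse or batch, and 1 of 9 same-numbered pairs had deviations that correlated above 0.1 (range -0.07 to 0.11), where pairing was to be taken only if every pair did, so no block was used. The members, the lists and the rule for named genes were chosen with earlier results of these data known. The rule took all members and, from each list, every gene past the threshold in the 2 orthogonal contrasts and up to 2 others with the smallest p among those above background on all arrays. Alternatives were a further quantile normalization, median centring, a filter on level, values raised to background, trend and robust settings, array weights, the replicate block, all rows, and each array left out. Of the partner genes, Cdc20, Birc5 and Anapc10 were followed through these, chosen after seeing the data.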

Additional observations from a re-analysis of the deposited data

Results flagged for a closer look

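Among the 9 checkpoint genes and the 17 partner genes named by the rule, each was searched for a purified oocyte far from the other 5. Anapc10 and Nsl1, mentioned outside that rule, were not searched. Ppp2r5c had 1 such value, 11.81 in RNeasy replicate 2, where the next highest purified oocyte had 11.61. Chance flags about 1 in 20 genes, and 26 were searched. None of the 9 checkpoint genes had such an oocyte.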

How the results depend on the processing

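None of the 36 member differences (9 genes, 4 comparisons) passed in any of the 17 alternatives, which gave 612 values. The level filter, trend and robust settings, the replicate block and all rows leave a member's difference unchanged, so its sign could not change there. Raising values to background also left the differences of Mad1l1 and Mad2l1 as they were. Mad1l1, Mad2l1 and Mad2l1bp kept a negative difference between crude lysate and purified RNA in 17 of 17 alternatives each, at -0.78 to -0.43, -0.69 to -0.34 and -1.67 to -1.05. Their adjusted p (limma) ran from 0.0637 to 0.383, from 0.0577 to 0.279 and from 0.102 to 0.242. Mad2l1 came nearest to 0 without direct lysis replicate 2, at -0.34. The sign of a member difference changed in 30 of the 612 values, mostly of differences near 0. The 612 include the settings where it could not change. Of the differences that changed sign, the largest with all arrays was Trip13 between crude lysate and RNeasy, at 0.23. It was -0.06 without RNeasy replicate 3 and -0.01 with values raised to background. Between PicoPure and RNeasy, Trip13 had 0.03 with all arrays and ran from -0.26 to 0.26 when single arrays were left out. The count of 7 members above background on all arrays was met under every level tried and without each array. Counts over all genes moved more. Without single arrays they ran from 24 to 232 for direct lysis against purified RNA (201 with all arrays), 0 to 15 for PicoPure against RNeasy (12), 3 to 95 for direct lysis against RNeasy (87) and 14 to 123 for direct lysis against PicoPure (119). With the replicate number as a block they were 25, 0, 15 and 17. In 6 of 9 arrays the closest array of another preparation carried the same number, a hint from the data only, and 1 of 9 same-numbered pairs correlated above 0.1. PicoPure against RNeasy gave 0 with trend and robust settings (1595 at an unadjusted p under 0.05) and 51 with array weights. Direct lysis against PicoPure gave 73 after a further quantile normalization. With values raised to background the median difference of all genes between PicoPure and RNeasy was -0.15, against -0.03 in the main fit. In that setting a gene below background takes its array's own level. That level was 7.19, 7.26 and 7.25 with PicoPure and 7.41, 7.26 and 7.47 with RNeasy. Between the kits 8900 genes then had an unadjusted p under 0.05, against 1591 in the main fit. The causes of the changes in counts were not tested. Signal near background limits Mad2l1bp and Trip13.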

Other observations

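Mad2l1bp had the largest SD of the members over the 9 arrays (0.89). Among the 8598 genes above background on all arrays, of which it is not one, those with the values most like it were Hook1, Zfp160 and Nkap, with Pearson correlations of 0.97, 0.96 and 0.96. Hook1, a dynein adaptor gene, had 10.56, 10.40 and 10.06 in crude lysates, 11.25, 11.02 and 11.22 with PicoPure and 11.06, 11.00 and 10.70 with RNeasy. These are the highest of 8598 correlations over 9 points that share the 3 preparations, and they are given as a description.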
